A study of Mus musculus with 8 samples.

Results

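BCL2 family and caspase genes, 9 in all, were followed through the m6A peak lists of mouse embryonic stem cells in which Setd2 was knocked down or left untouched. SETD2 trimethylates lysine 36 of histone H3. The genes were Mcl1, Bcl2l1, Bbc3, Bcl2l11, Bax, Bak1, Casp9, Casp8 and Apaf1. Their peaks were all rows of the deposited peak tables that carry the gene's Ensembl identifier, matched to the symbol by location and strand. Of the 9 genes, 8 carried a peak, among 13110 identifiers with a peak in either condition. They held 15 of the 27612 Dox peaks and 16 of the 25815 control peaks.

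All cells carried a construct for knockdown of Setd2 that doxycycline (Dox) switches on, and grew without feeder cells, as spheres, in N2B27 medium with LIF at 1000 U/ml, the MEK inhibitor PD0325901 at 1 µM and the GSK3 inhibitor CHIR99021 at 3 µM. The Dox group received 1 µg/ml Dox for 4 days, and the control group received none. Dox-treated cells without the construct were not analysed here, so Dox itself and the knockdown cannot be told apart. Each group had 2 IP libraries, made with an m6A antibody, and 2 input libraries. The authors pooled the replicates into 1 peak table per condition. Every fold below is the authors' ratio of IP over input for a single peak, and these pooled tables give no replicate spread, no sequencing depth and no test between the conditions. Read numbers per library were not analysed here, so these tables give neither transcript levels nor how far Setd2 was depleted. Setd2 itself held 6 Dox peaks and 10 control peaks.

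N6-methyladenosine (m6A) is a methyl mark that the METTL3-METTL14 complex places on messenger RNA during transcription and that YTH proteins read. It influences how fast a transcript decays and how well it is translated. The antibodies used to map it also bind m6Am, a related mark next to the cap of a transcript. The BCL2 family sets the threshold for death through mitochondria. Anti-apoptotic members such as MCL1 and BCL-XL (the long product of Bcl2l1) hold the effectors BAX and BAK in check. BH3-only members such as PUMA (Bbc3) and BIM (Bcl2l11) counter that hold. Once the outer mitochondrial membrane opens, cytochrome c joins APAF1 in the apoptosome, which activates the initiator caspase encoded by Casp9. The initiator caspase encoded by Casp8 acts below death receptors. Embryonic stem cells are known to be primed for this mitochondrial route.

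Nearly all peaks of these genes were called in both conditions. Peaks of the 2 lists were matched wherever their exons shared 1 nucleotide or more on the same strand. Of the 15 Dox peaks, 1 (6.67%, exact 95% binomial interval 0.169% to 31.9%) had no control peak, where 29.1% of all Dox peaks had none. Among the 16 control peaks, 1 lacked a Dox peak (6.25%, interval 0.158% to 30.2%), where 19.3% of the whole control list did. The intervals cover counting error only and treat peaks of the same gene as independent. Each contains the share of its whole list. These genes also held many strongly supported peaks. A log10 FDR of -20 or less was reached by 8 of the 15 Dox peaks and 10 of the 16 control peaks, against 27.8% of all Dox and 34.6% of all control peaks. Taken nucleotide by nucleotide, 91.9% of the exonic sequence under their Dox peaks also lay under a control peak, and 88.1% of that under their control peaks lay under a Dox peak. Over all identifiers the shares were 66.3% and 80.4%.

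**Figure D1:**
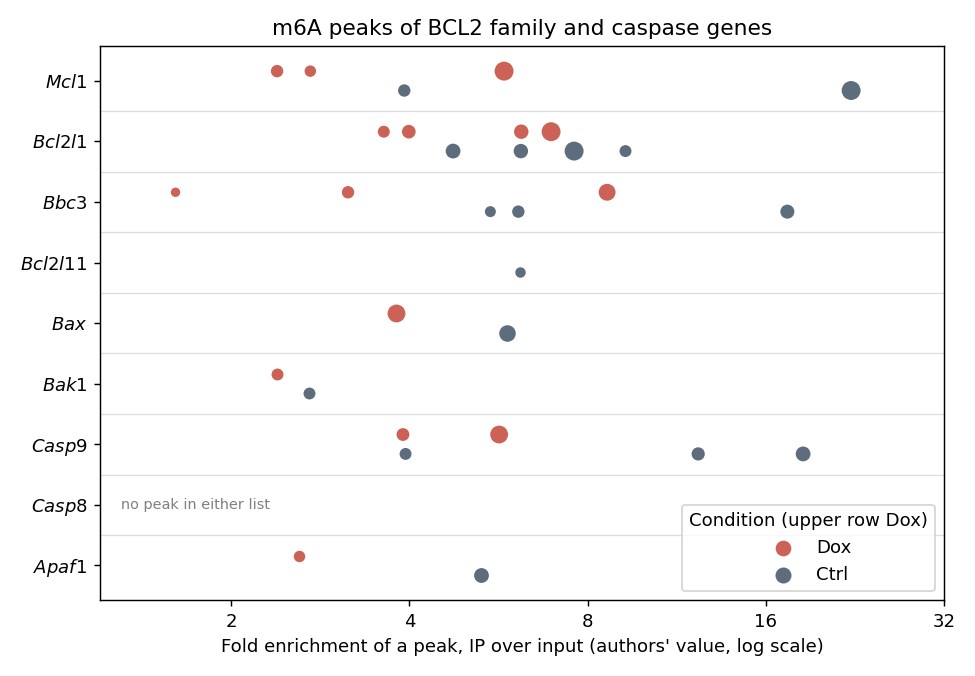
Fold enrichment of every peak of the 9 genes, IP over input on a log scale, with Dox peaks in the upper row of each gene and control (Ctrl) peaks in the lower row; larger dots are peaks with more exonic nucleotides. The highest Dox fold is 8.63, in Bbc3, and the highest control fold is 22.3, in Mcl1; Bcl2l11 has a control peak only and Casp8 has none.

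The anti-apoptotic genes carried the longest peaks. Mcl1 (ENSMUSG00000038612.16) spans 95656944 to 95663179 on chromosome 3, plus strand (GRCm38.p6, the assembly of mm10). Its Dox list held 3 peaks, with folds of 2.72, 5.78 and 2.39 from the 5' to the 3' end, and its control list held 2, with folds of 22.3 and 3.92. The first control peak (95658788 to 95661198) joined 3 exonic blocks of 700, 248 and 492 nt, and the first and second Dox peaks both lay inside it. The second Dox peak (95659058 to 95661198) shared 1170 nt with it and ended at the same nucleotide, and its log10 FDR was -129 against -246 in the control list. The 89 nt between the first and second Dox peaks were the only part of the control peak that the Dox list left out. At the 3' end, peaks of 241 nt began 30 nt apart, ending 153 nt before the end of the gene in Dox and 123 nt before it in control. In all, 91.3% of the nucleotides covered in either list were covered in both.

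Bcl2l1 (ENSMUSG00000007659.18; minus strand of chromosome 2, 152758732 to 152833803) held 4 peaks in each list, matched peak for peak. From 5' to 3' their Dox folds were 3.62, 6.94, 6.18 and 3.99. The control folds were 9.27, 7.59, 6.17 and 4.74. The first pair (152830489 to 152830699) and the third (152782017 to 152828250, 2 blocks of 266 and 124 nt) had the same bounds in both lists. The third pair joined parts of 2 exons across an intron and had nearly equal folds. In the first pair the Dox over control ratio was 0.391, and the log10 FDR was -5.04 in Dox and -23.0 in control. Bcl2l1 was thus nearly identical in layout, with 93.6% of its covered nucleotides in both lists, while the fold differed most at its first peak. Of all overlapping pairs in the 2 lists 8.45% had the same bounds, and of the 15 pairs of these genes 3 did, these 2 and that of Bak1.

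The BH3-only genes differed from each other. Bbc3 (ENSMUSG00000002083.12; plus strand of chromosome 7, 16308398 to 16318334) encodes PUMA, which p53 induces after DNA damage. Its Dox folds were 3.15, 8.63 and 1.61, and its control folds were 5.48, 6.11 and 17.4. The second Dox peak (16313707 to 16317606, blocks of 111 and 489 nt) covered part of the second control peak (16313647 to 16317187, 181 of its 241 nt) and the whole of the third (16317246 to 16317606) and was the Dox peak of highest fold among the 9 genes. Its log10 FDR was -92.1, against -27.0 and -187 for those control peaks. The third Dox peak (16317905 to 16317965) was the Dox peak without a control counterpart. It was weak, with 61 nt and a log10 FDR of -2.04, and 52.1% of all Dox peaks with a log10 FDR above -5 had no counterpart.

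Bcl2l11 (plus strand of chromosome 2, 128126038 to 128162547) encodes BIM. It had no Dox peak and 1 control peak, at 128126128 to 128126248, and its fold was 6.15. It was weak (log10 FDR -2.34), and 40.4% of the control list above -5 lacked a counterpart. The Bcl2l11 interval overlaps that of another gene, Acoxl, on the same strand, and the peak was given to Bcl2l11 because it begins 90 nt from a Bcl2l11 start. By identifier 8.92% of genes had control peaks and no Dox peak, and 1 of the 8 genes with a peak here did.

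Both effector genes held a single peak per list. Bax (ENSMUSG00000003873.10; minus strand of chromosome 7, 45461695 to 45466903) had a Dox fold of 3.79 and a control fold of 5.85. Its Dox peak (45461845 to 45466868) joined 6 exonic blocks with 689 nt, and its control peak (45463426 to 45466898) joined 5 blocks with 570 nt. The Dox peak reached to 150 nt from the 3' end of the gene, while the control peak stopped 1731 nt before it in genomic distance. These were the best supported peaks of the 9 genes, with log10 p-values of -679 in Dox and -939 in control, and their log10 FDR is listed as minus infinity. Bak1 (ENSMUSG00000057789.13; minus strand of chromosome 17, 27019812 to 27028627) had a Dox fold of 2.39 and a control fold of 2.71 in a peak with the same bounds, 27028415 to 27028623. Both of its peaks had far less support than those of Bax, at log10 FDRs of -5.69 in Dox and -3.67 in control. The effector genes thus differed widely in statistical support, and in both the Dox fold was the lower value.

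Among the caspase and apoptosome genes, Casp9 carried the strongest peaks. Casp9 (ENSMUSG00000028914.13; plus strand of chromosome 4, 141793612 to 141815978) had Dox folds of 5.67 and 3.90 and control folds of 12.3, 18.5 and 3.94. Its first Dox peak (141793821 to 141796908, blocks of 166, 48 and 474 nt) covered 210 of the 300 nt of the first control peak and the whole of the second, which had log10 FDRs of -10.9 and -99.9. The last peak of the gene, near the 3' end, was at 141813766 to 141814035 in Dox and 141813796 to 141814005 in control, with nearly equal folds and log10 FDRs of -18.1 and -13.4. Apaf1 (ENSMUSG00000019979.12; minus strand of chromosome 10, 90989311 to 91082743) encodes the scaffold of the apoptosome. Its only Dox peak (91082440 to 91082620, 181 nt), at a fold of 2.60 (log10 FDR -2.39), lay inside its only control peak (91082290 to 91082710, 421 nt), at a fold of 5.29 (log10 FDR -12.8). Apaf1 thus had the lowest share of nucleotides covered in both lists, 43.0%, among the 7 genes with peaks in both. Casp8 (chromosome 1, 58795233 to 58847503) had no peak in either list.

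**Figure D2:**
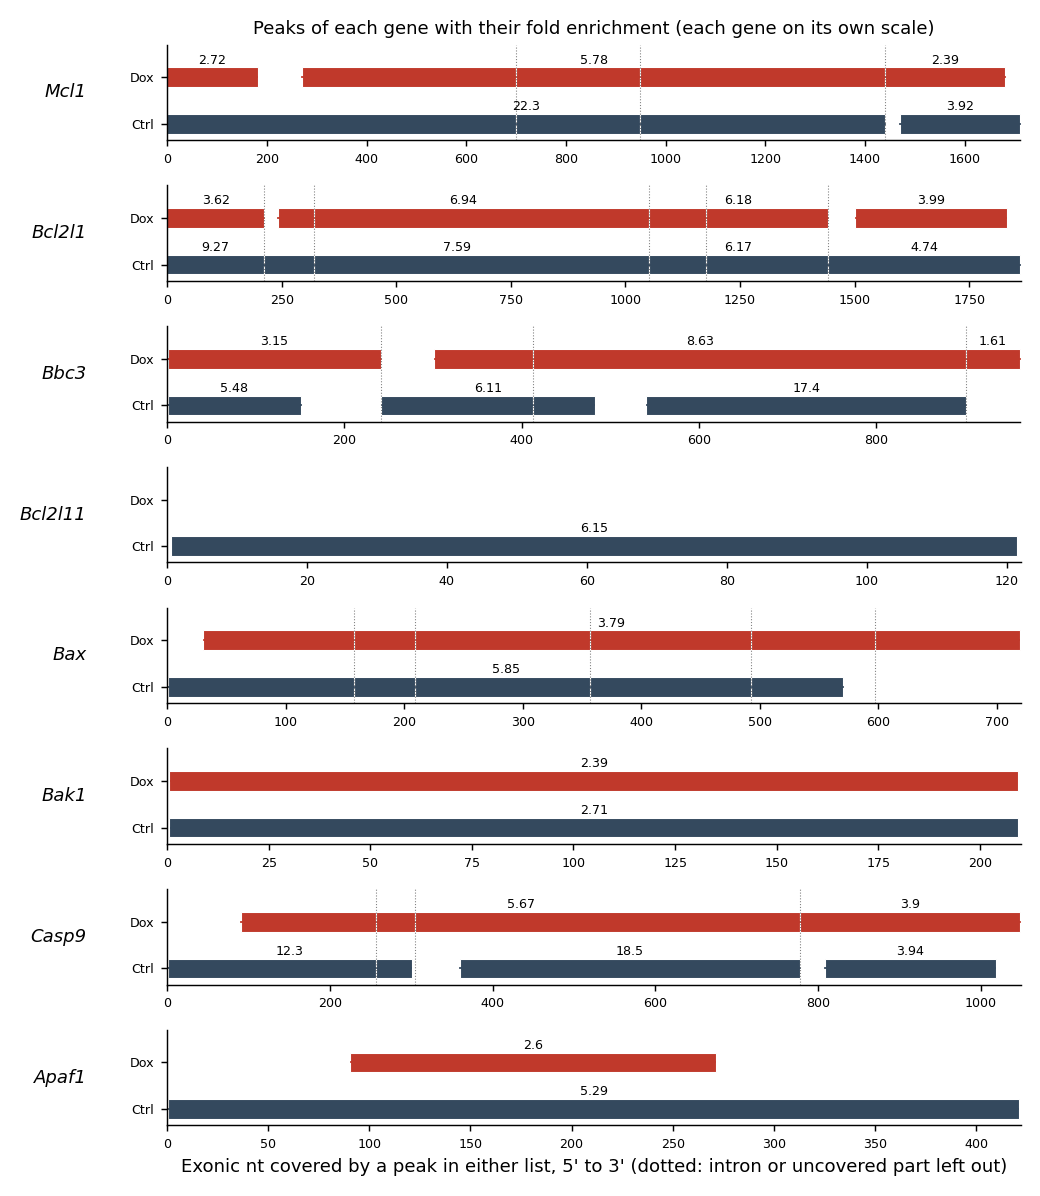
Peaks of the 8 genes with a peak, drawn over the exonic nucleotides covered in either list from 5' to 3', each gene on its own scale in nt; Dox peaks stand above control (Ctrl) peaks, numbers are folds and dotted lines mark introns or uncovered parts left out. In Mcl1 a single control peak of 1440 nt faces Dox peaks of 181 and 1170 nt, while in Bbc3 and Casp9 a single Dox peak of 600 and 688 nt faces a pair of control peaks.

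Peak boundaries differed between the lists in 6 of the 7 genes with peaks in both. Differing bounds were the rule, since 8.45% of all overlapping pairs had the same bounds, against 3 of the 15 pairs here. Counts by gene over all genes are not given here. Dox peaks that covered at least 2 control peaks were found in Bbc3 and Casp9, 2 of the 15 Dox peaks, and such peaks made up 8.18% of the whole Dox list. A control peak that covered 2 Dox peaks was found in Mcl1, 1 of 16, against 4.93% of the control list. Bbc3, Bax and Casp9 had more nucleotides under Dox peaks (902, 689 and 958 nt) than under control peaks (753, 570 and 929 nt). Mcl1, Bcl2l1 and Apaf1 had fewer, with 1592, 1741 and 181 nt in Dox and 1681, 1861 and 421 nt in control, and Bak1 had 209 nt in each.

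A peak at the start of the transcript was a shared feature, and the choice of genes did not use it. The exception is Bcl2l11, whose control peak was given to it by its distance from a start. The RefSeq promoter table (GRCm38.p6) gave at least 1 start for each gene. In the Dox list 6 of the 7 genes with a peak had one whose 5' edge lay within 200 nt downstream of a listed start, where 27.6% of all genes with a Dox peak and a listed start did. In the control list all 8 did, Bcl2l11 by the way its peak was assigned, where 35.6% of such genes did. The limit of 200 nt was chosen after the positions were seen, and the gene missing it in Dox, Casp9, lay at 209 nt. In Bak1 the peak began 4 nt from the start in both lists, in Bcl2l1 18 nt, in Bbc3 33 nt and in Mcl1 67 nt. In the other 3 genes with both peaks the Dox peak began further downstream. Bax peaks began 30 nt from the start in Dox and 0 nt in control, those of Apaf1 123 nt in Dox and 33 nt in control, and those of Casp9 209 nt in Dox and 119 nt in control. Control peaks thus reached as far towards the start as Dox peaks in each of the 7 genes, or further. The same count over all genes is not given here. In the whole lists, too, more genes had a control peak near a start (35.6%) than a Dox peak (27.6%).

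For 5 genes the first 50 transcribed nucleotides reached into a control peak. The stretches below, 30 nt each, show where the peaks of both lists set in. They are taken from the RefSeq promoter table and are written 5' to 3' on the transcript strand, with the bases under both a Dox and a control peak in capitals. They span positions 1 to 30 after the listed start for Bak1 (chr17:27028598-27028627, minus strand), and positions 21 to 50 for Bcl2l1 (chr2:152830668-152830697, minus strand), Bbc3 (chr7:16309603-16309632, plus strand), Bax (chr7:45466849-45466878, minus strand) and Apaf1 (chr10:91082694-91082723, minus strand).
Bak1: cattGCCGGGAGCTGGGACCTCCTCTATGG
Bcl2l1: GGGGCGTGCTAGAGCGAGGGGGTTGGGCTC
Bbc3: tctgccgggaggcCTGAGACGCGGCATAGA
Bax: atgttgcgggGCACCCACGTGAGGGCCGCA
Apaf1: gcggtgtttgagtgctccgcggtcctgagg
In Bak1 both peaks set in at position 5, in Bcl2l1 at 19 and in Bbc3 at 34. In Bax the control peak covered all 50 nt and the Dox peak set in at 31. In Apaf1 the control peak set in at 34 and the Dox peak did not reach these 50 nt. GGAC, the core of the preferred m6A sequence, was searched in the 50 nt after each listed start. It was found on the transcript strand at 2 of the 14 starts of the 9 genes, and 18.9% of all 32851 listed starts held it. On the other strand, where 17.4% of all starts held it, 3 of the 14 did. The match in Bak1 began at position 16, under both peaks, and that in Apaf1 at position 5, outside them. These letters describe the windows only, since m6A can lie anywhere under a peak.

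**Figure D3:**
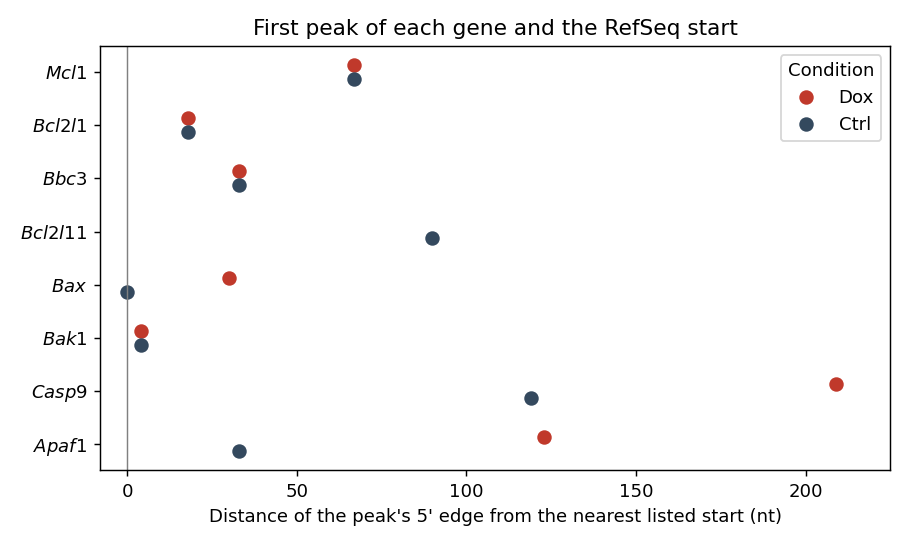
Distance in nt from the nearest listed RefSeq start to the 5' edge of the first peak, for the 8 genes with a peak, with Dox above control (Ctrl). Both dots stand at the same distance in Mcl1, Bcl2l1, Bbc3 and Bak1, the Dox dot lies further from the start in Bax, Casp9 and Apaf1, and Bcl2l11 has a control dot only.

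The folds of overlapping peaks were mostly lower in the Dox list. Each control peak was paired with the Dox peak that shared most nucleotides with it, which gave 15 pairs for these genes and 20832 in all. In 13 of the 15 pairs the Dox fold was the lower value, where it was in 62.3% of all pairs. These pairs are not independent, since they come from 7 genes. The long Dox peaks of Bbc3 and Casp9 each enter 2 of them. The median log2 ratio of Dox over control fold was -0.71, against -0.24 over all pairs. Relative to that median of all pairs, the pairs of these genes had a median of -0.47. The median of all pairs mixes all control folds, on which the ratio depended, as set out below. Relative to pairs of like control fold, the median for these genes was -0.27. Pairs at least 2-fold below the median of all pairs numbered 3 of 15, where 13% of all pairs were, and none was 2-fold above it, where 9.32% were. These 3 were the long Mcl1 peak (log2 ratio -1.95), the pair of the second control peak of Casp9 (-1.71) and the first peak of Bcl2l1 (-1.36). The pairs with a higher Dox fold were the second control peak of Bbc3 (0.50), which the long Dox peak also covers, and the third of Bcl2l1, at a ratio of 1.00.

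The ratio depended on the control fold throughout the lists, and the 2 lowest ratios of these genes belonged to their 2 highest control folds. Over all pairs with a control fold below 4 the median ratio was 1.15, and at control folds of 16 or more it was 0.315. Each pair was therefore also set against all pairs whose control fold lay within 10% of its own, a comparison added after the values were seen. On this scale 9 of the 15 pairs lay below the median of like pairs and 6 above it, 7 lay within the interquartile range, and none differed by 2-fold. The long Mcl1 peak differed from the median of like pairs by a log2 value of -0.27, and 33.0% of its 379 like pairs were lower still. The second control peak of Casp9 also differed by -0.27, and 32.3% of its 523 like pairs were lower. Both lay within the interquartile range of like pairs, although they were among the lowest ratios against all pairs. The pairs furthest from their like pairs were that of Apaf1 (-0.73, with 10.9% of like pairs lower) and the second of Bbc3 (0.92, with 92.9% lower).

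**Figure D4:**
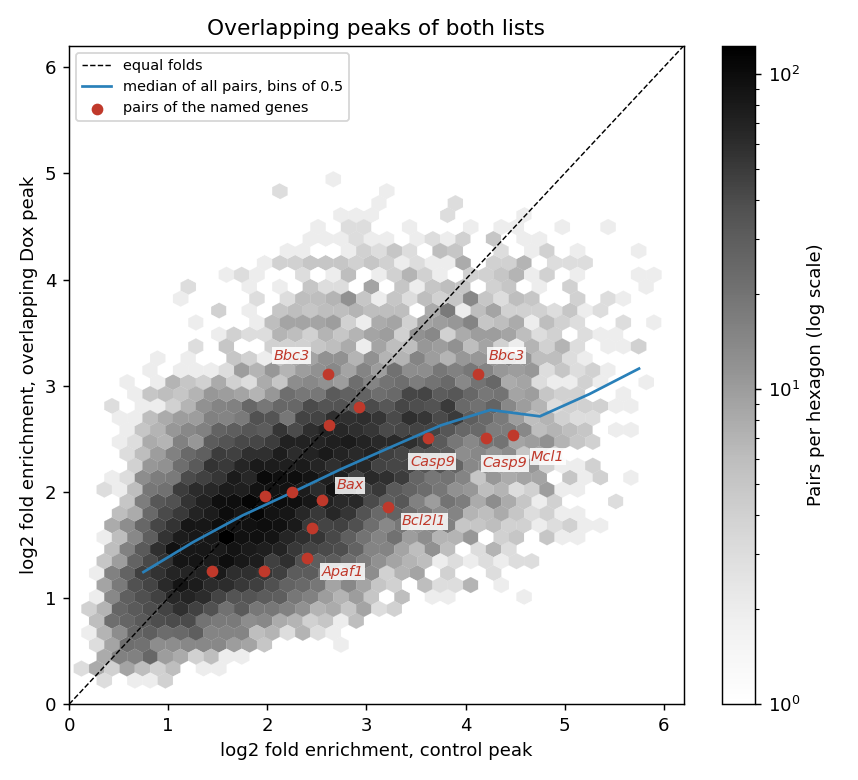
Log2 fold of each Dox peak against the log2 fold of the control peak it overlaps, for all 20832 pairs (grey hexagons, log count scale) and for the 15 pairs of the named genes (red); the dashed line marks equal folds and the blue line the median of all pairs in bins of control fold. The red points scatter on either side of the blue line, with points of Bbc3 and Bcl2l1 among the furthest above it. Apaf1, the 3' peak of Mcl1 and the first Bcl2l1 peak are among the furthest below it.

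By position, the pairs at transcript starts mostly lay lower than the others against like pairs. The limit of 200 nt was chosen after the positions were seen. In all 7 pairs whose control peak began within 200 nt of a listed start the ratio was below the median of like pairs, with a median log2 difference of -0.38. Of all 1947 such pairs 61.5% were below, and their median difference was -0.18. Of the other 8 pairs of these genes 2 were below, and 48.1% were among the 13564 pairs elsewhere in genes with a listed start. Among these 8, the pair at the 3' end of Mcl1 differed by -0.62, lower than all start pairs but that of Apaf1. The third and second control peaks of Bcl2l1 began 239 and 423 nt from a listed start, and their pairs differed by 0.44 and 0.51. The 7 start pairs belong to 7 genes, and their differences ran from -0.73 in Apaf1 through -0.57 in Bcl2l1, -0.49 in Bbc3, -0.38 in Bak1 and -0.27 in Bax and Mcl1 to -0.08 in Casp9. In Mcl1, Bax and Casp9 that peak reached into later exons, so its fold is not that of the start alone. The Mcl1 pair takes the second Dox peak, which began 337 nt from the start. With no replicate values these differences have no error, and no test was made of them.

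Other apoptosis genes, 53 from a list that leaves out the 9, were counted in the same way. A peak was found for 36 of them, in both conditions for 32, in Dox only for 3 and in control only for 1, where 11.1% of all identifiers had Dox peaks only and 8.92% control peaks only. Of their 74 Dox peaks 24 (32.4%) had no control peak, and of their 70 control peaks 11 (15.7%) had no Dox peak, near the 29.1% and 19.3% of the whole lists. The median log2 ratio of their 59 pairs was 0.01, against -0.24 over all pairs. Their pairs were not set against pairs of like control fold, so this median does not separate them from the 9 genes. Bcl2, the founding anti-apoptotic gene, had no peak in either list, nor did Casp6, an executioner caspase gene, or Pmaip1, which encodes the BH3-only protein NOXA. Bcl2l2, which encodes the anti-apoptotic protein BCL-W, had highest folds of 3.14 in Dox and 3.94 in control. Bid, whose product is cut by the caspase that Casp8 encodes, had 1 Dox peak (9.22) that faced 4 control peaks (highest fold 9.61).

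Casp2, another caspase gene, had 1 Dox peak (2.11, beginning at 42279821) and 2 control peaks. The control peak of highest fold (6.77, log10 FDR -2.66) began at 42265075, a different site, so these folds are not a pair. Cycs, the gene of cytochrome c, had folds of 3.15 in Dox and 3.70 in control, and Diablo, which encodes an antagonist of IAP proteins, had 2.31 in Dox and 1.79 in control. Fadd, the adaptor of death receptors, had highest folds of 8.19 in Dox and 8.42 in control. Cflar, whose product blocks the caspase of Casp8, had 1 weak peak in each list (7.59 in Dox and 13.5 in control, log10 FDRs of -2.28 and -2.31), and these did not overlap. Genes with a log10 FDR of -5 or less in one condition and no peak in the other were also named. The share of all identifiers that meet this rule is not given here. The genes so named, with Dox peaks only, were Xiap and Aifm1. Xiap encodes a caspase inhibitor (fold 3.68, log10 FDR -6.35). Aifm1 is a mitochondrial flavoprotein gene (2 peaks, highest fold 2.21, log10 FDR -12.6). Both genes lie on chromosome X.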

How the data were processed

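The 8 libraries formed 4 groups of 2 replicates (IP and input, Dox and control). Per the submitters' processing notes, the tools were TopHat2 2.1.1 and FastQC 0.11.5, and the build was mm10. The deposited tables are named for exomePeak. For its settings and annotation, the sources used here give nothing. Per the file headers, each peak has a fold, a ratio of IP over input whose scaling is not given. Folds of 8 to 40 at a log10 FDR above -8 were coarse. Of these, 80.4% in Dox were whole multiples of 1.0845, and 77.3% in control were whole multiples of 1.23. The control folds of Bcl2l11 (6.15) and of the first Casp9 peak (12.3) lie outside those limits but also fell on whole steps, 5.0 and 10.0. The deposited score column holds the p-value of each peak, and the authors' log10 p and log10 FDR columns hold its log10 and that of the FDR. The authors' shorter lists were checked to equal the peaks with a fold of 2 or more and a p-value no higher than 1e-05.

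Exonic overlaps were counted from the block columns in Python 3.11.15 (numpy 2.4.6, pandas 2.3.3, scipy 1.17.1, matplotlib 3.10.9), with 0 wrong overlaps on simulated data of 300 peaks per list. Identifiers were named by the protein-coding RefSeq gene holding most of their peak midpoints, at least 50%, on the gene's strand where listed. Ties went to the gene with the nearest upstream listed start, which named 10758 of 13110. The members, lists and named genes (all 9 genes, 13 fixed apoptosis genes and those strong in a single condition) were chosen with earlier results of these data known. Values of a few of the fixed genes are not reported here. Coding and untranslated parts were not analysed here. Nothing in the labels says whether replicates came from separate cultures.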

Additional observations from a re-analysis of the deposited data

How the results depend on the processing

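The share of Dox peaks of the 9 genes without a control peak stayed within its interval with an overlap of 50% of the shorter peak (6.67%, all Dox peaks 30.5%), in the authors' shorter lists (7.69%, all 22.3%) and with both lists limited to log10 FDRs up to -5 (8.33%, all 22.3%). It was 0% when only the Dox list was so limited (0 of 12, interval up to 26.5%, all 11.6%) and 0% at a fold of at least 4 in both lists (0 of 5, interval up to 52.2%, all 31.6%). The share of control peaks without a Dox peak was 0% when only the control list was so limited (0 of 14, interval up to 23.2%, all control peaks 7.56%), 14.3% with both lists limited (2 of 14, all 21%) and 0% without Bcl2l11, whose peak lies in overlapping genes (0 of 15, added after the values were seen). At a fold of at least 4 in both lists it was 46.2% (6 of 13), with 45.7% of all control peaks: Dox folds below 4 then drop out by construction. The median log2 ratio of Dox over control fold, relative to all pairs, was -0.47. It was -0.35 with both lists limited by FDR, where 3 pairs drop out, -0.27 relative to pairs of like control fold (added later), and -0.71 with no scaling. Across the remaining alternatives it lay between -0.38 and -0.55. No paired analysis was possible because each table pools both replicates. Leaving out a replicate could not be done for the same reason. Precision is limited by 15 and 16 peaks and by unknown depth.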

Other observations

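The IAP genes, of which Xiap encodes a caspase inhibitor, differed between the lists in number of peaks. Of 6 such genes 5 carried a peak, and together they held 17 Dox peaks and 7 control peaks. Each of the 7 control peaks overlapped a Dox peak, while 10 of the 17 Dox peaks (58.8%) lacked a counterpart, against 29.1% of the whole Dox list. The strength of those 10 is not given here, and of all Dox peaks with a log10 FDR above -5, 52.1% lacked a counterpart. The lowest log10 FDR in Dox was -5.19 for Birc2 and -5.38 for Birc3. Birc6, which encodes a very large ubiquitin ligase, held 8 of the 17 Dox peaks, including 6 of the 10 without a counterpart, and 2 control peaks. Its highest folds were 4.28 in Dox (log10 FDR -18.4) and 4.98 in control (log10 FDR -23.1). Birc2 held 3 Dox peaks and 1 control peak. Birc5, the gene of survivin, held 2 peaks in each list, with highest folds of 3.65 in Dox and 3.21 in control, at different sites. Birc2 and Birc3 lie side by side on chromosome 9 and are close copies, so their values are uncertain. These genes were named after their values were seen, and no difference between the conditions was tested.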
